A study of Mus musculus with 18 samples.

Results

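The genes described here are 10 that encode surface proteins read by natural killer (NK) cells and T cells: Raet1d, Raet1e and Ulbp1, which bind the activating receptor NKG2D, Cd274 and Pdcd1lg2, which bind the inhibitory receptor PD-1, Pvr and Nectin2, which bind DNAM-1, Icam1 and Icam2, which bind the integrin LFA-1, and Cd47, which binds SIRPa on phagocytes. They were chosen by name for these roles, with earlier results of these data known, and make up 10 of the 50686 genes in the count files. RNA-seq was done on E0771, a mouse mammary tumor cell line that the study grew as luciferase-labelled cells and treats as triple-negative breast cancer. Cells carried a retroviral short hairpin RNA against Renilla luciferase (cntrl) or against Cdk8 (shCdk8-1 and shCdk8-2), were sorted for the mCherry reporter of the vector, and received either DMSO or, at 1 µM, Senexin B (SnxB), an inhibitor of CDK8 and its paralog CDK19, over 48 h. This gave 6 groups of 3 libraries, 18 in all, 1 group for each line and medium. All groups share the vector, the sort and the culture in vitro without effector cells, and each hairpin is represented by 1 line. Whether replicate libraries were grown as separate cultures is not given in the sources used here, so the SDs and p-values below measure the spread between libraries, which may be technical.

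NKG2D ligands are relatives of MHC class I molecules that are scarce on most healthy cells and appear on stressed or transformed cells, where they mark the cell for killing by NK cells and cytotoxic T cells. PD-L1, encoded by Cd274, and PD-L2, encoded by Pdcd1lg2, restrain T cells and can restrain NK cells through PD-1. The poliovirus receptor CD155 (Pvr) and CD112 (Nectin2) are adhesion proteins that activate killer cells through DNAM-1 and inhibit them through TIGIT, so that the outcome depends on the receptors of the effector cell. ICAM-1 and ICAM-2 hold the effector cell at its target through LFA-1, and CD47 gives phagocytes a signal not to engulf the cell.

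The 2 Raet1 genes are near-copies, and their start regions are shown for their likeness. Only 50 of the 300 bases of a window follow the start, so the windows do not show how reads were assigned. In the RefSeq annotation of GRCm38.p6, the 300 bases around the start of Raet1d (chr10:22361644-22361943, plus strand) and around the downstream start of Raet1e (chr10:22173247-22173546, plus strand) overlap over 298 bases with an offset of 2 bases, and 3 of those bases differ (identity 99.0%). This Raet1e window and this offset were chosen as those with the highest identity to the Raet1d window, so the identity does not describe other starts of Raet1e. The differing bases are in capitals, and each window runs from 250 bases before the start to 50 after it.
Raet1d: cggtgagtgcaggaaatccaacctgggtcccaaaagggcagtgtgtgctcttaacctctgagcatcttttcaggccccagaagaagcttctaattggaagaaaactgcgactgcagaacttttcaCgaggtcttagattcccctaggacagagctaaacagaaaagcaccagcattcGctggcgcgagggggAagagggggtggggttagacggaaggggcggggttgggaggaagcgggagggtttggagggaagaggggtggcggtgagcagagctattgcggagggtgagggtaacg
Raet1e: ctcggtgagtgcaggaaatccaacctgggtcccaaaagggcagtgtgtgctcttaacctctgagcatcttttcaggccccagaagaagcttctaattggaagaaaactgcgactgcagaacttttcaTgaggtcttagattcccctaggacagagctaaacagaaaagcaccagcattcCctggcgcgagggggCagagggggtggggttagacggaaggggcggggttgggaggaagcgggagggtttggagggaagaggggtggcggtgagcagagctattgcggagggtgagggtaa
The counted exons also share bases. Of the 1441 exon bases of Raet1d, 25.2% lie in exons of Raet1e on the same strand, and 22.97% of the 2159 bases of Raet1e lie in exons of Raet1d or H60b, where reads were left uncounted as ambiguous. Of the 50-base stretches of the Raet1d transcripts, 55.8% also occur in Raet1e, and 44.7% of those of Raet1e occur in Raet1d or H60b. A 50-base read from them either has more than 1 place to map or lies in exons shared by the genes. These cases were not counted apart. The corresponding share was at most 2.27% for the other 8 genes.

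The start region of Icam1 (chr9:21015690-21015989, plus strand) is shown because Icam1 was the only gene of the 10 whose mRNA was higher in the shCdk8 lines in the comparisons below. Motifs were searched on either strand in the 10 RefSeq windows of 8 of the genes (none was given for Pvr or Icam2). Capitals mark the only matches found. The kB search covered the palindrome named below and no other form of kB site.
Icam1: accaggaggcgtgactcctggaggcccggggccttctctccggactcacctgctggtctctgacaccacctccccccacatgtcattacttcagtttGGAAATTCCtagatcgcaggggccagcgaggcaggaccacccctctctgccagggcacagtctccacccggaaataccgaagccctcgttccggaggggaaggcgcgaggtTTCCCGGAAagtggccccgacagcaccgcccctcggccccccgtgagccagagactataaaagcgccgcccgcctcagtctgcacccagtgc
The upstream match, at position -153 from the start, is the palindromic kB sequence GGAAATTCC bound by NF-kB proteins, which 0.317% of all 32851 windows in the table hold. The other, at position -42, is the interferon-gamma activated site TTCNNNGAA, which 8.30% of windows hold. The motif of paired interferon regulatory factor half-sites was in 0 of the 10 windows and in 3.44% of all windows. A match describes letters in a window and does not show binding.

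The libraries held 16452260 to 22664693 counts (median 19029320), and 3 counts in a library amount to 0.132 to 0.182 CPM (read counts relative to the library size, scaled here by the TMM method). Cdk8, the gene targeted by the hairpins, was at 56.1 ± 2.12 CPM (mean ± SD, n = 3) in cntrl cells in DMSO, at 21.4 ± 2.44 in shCdk8-1 and at 38.8 ± 0.376 in shCdk8-2, so that its mRNA fell by 61.8% and fell by 31.0%, while Cdk19, its paralog, was higher by 33.5% and by 8.74% (adjusted p = 5.8e-08 and 0.00989). The mammary epithelial markers went against a plain epithelial identity: the sum of 7 markers was at most 0.441 CPM in cntrl cells in DMSO, and only Krt8 exceeded a mean of 1 CPM in the shCdk8 lines (7.51 and 13.0 CPM in DMSO). Vim, an intermediate filament of mesenchymal cells, had means of 3691 to 4428 CPM over the 6 groups. The other 2 mesenchymal markers, Cdh2 and Fn1, had means of at most 0.0386 and 0.0742 CPM. Of 5 fibroblast markers in cntrl cells in DMSO, Pdgfra and Pdgfrb were at 286 and 265 CPM. Dcn, Col1a1 and Lum were at 0.539, 0.780 and 0.0344 CPM there. In shCdk8-1 and shCdk8-2 cells in DMSO, Pdgfra was at 229 and 256 CPM, Pdgfrb at 166 and 162, and Col1a1 at 16.6 and 9.90. Dcn was at 1.82 and 0.813 CPM and Lum at 0.114 and 0.117. Of the receptors that define triple-negative tumors by their absence, Pgr had 0 counts, Erbb2 had means of 47.3 to 55.8 CPM, and Esr1 was at 23.1 CPM in cntrl cells in DMSO against 1.25 in shCdk8-1 and 0.951 in shCdk8-2 cells. The 3 endothelial markers did not move together: Pecam1 was at 0.286, 14.3 and 5.85 CPM in the same groups, while Cdh5 was at 4.34, 0.206 and 0.595 CPM and Kdr at 0.606, 0.0534 and 0.112 CPM. The part of these marker differences in the ligand results was not tested. In bulk RNA, fewer cells of a kind and less RNA per cell cannot be told apart.

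The summed level of 12 leukocyte markers was 1.07 to 3.82 CPM across the libraries, most of it from Cd68, and Ncr1 and Cd8a, which define NK cells and cytotoxic T cells, had 0 counts. Over all 18 libraries together, Klrk1 (NKG2D) had 1 count, Cd226 (DNAM-1) 1, Pdcd1 (PD-1) 11, Itgam 1 and Sirpa 9, while Cd96 and the NKG2D adaptor Hcst had 0. Of the same list of 11 receptors, Pvrig had 55 counts, and Itgb2, Tigit and Itgal, described with the lists below, had 4668, 2225 and 879.

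In cntrl cells in DMSO, the ligands differed widely in level. Compared per exon length, as TPM (counts relative to exon length and library size, n = 3), Raet1d was highest at 125 ± 7.004, followed by Raet1e at 94.3 ± 3.08, Cd47 at 92.6 ± 1.35, Pvr at 85.1 ± 2.56 and Ulbp1 at 60.1 ± 4.81. Nectin2 was at 26.8 ± 1.74 TPM and Cd274 at 6.03 ± 0.659. Icam2 at 3.12 ± 0.855 TPM and Icam1 at 1.30 ± 0.113 TPM were the lowest of the genes with counts. Each gene's libraries lay below those of the gene before it except Cd47, whose values overlapped those of Raet1e. Counting only the exon bases that were not shared with another gene raised Raet1d to 167 TPM and Raet1e to 122. Without length, Pvr (134 CPM) had the highest level and Raet1d (46.5 CPM) stood at rank 5. Pdcd1lg2 had 0 counts in these libraries and 2 counts in all 18, 1 in a shCdk8-2 library in DMSO and 1 in a cntrl library in SnxB, and was not tested. At these depths a level under 0.132 to 0.182 CPM could not be told from 0, and such floors and the count intervals given below cover counting error only.

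**Figure D1:**
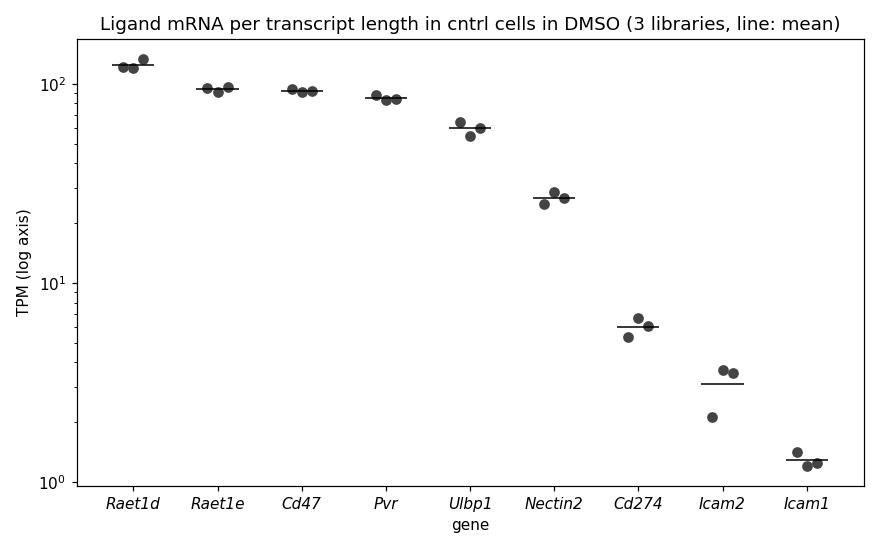
Levels of the 9 ligand genes with counts in cntrl cells in DMSO, per exon length (TPM on a log axis); each point is 1 of 3 libraries and the line is their mean. Raet1d (mean 125 TPM) is highest and Icam1 (mean 1.30 TPM) lowest.

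The first comparison asked how the ligands differ after knockdown of CDK8. In DMSO, all 9 tested genes passed the test with shCdk8-1 and with shCdk8-2: Raet1d, Raet1e, Ulbp1, Cd274, Pvr, Nectin2, Icam2 and Cd47 fell and Icam1 rose. The test was edgeR's quasi-likelihood test with Benjamini-Hochberg adjustment over all genes tested, passed at an adjusted p under 0.05. The largest adjusted p among the 9 was 0.000110 with shCdk8-1 and 4.37e-05 with shCdk8-2. The libraries of cntrl and shCdk8 cells did not overlap for any of the 9, but the share of all genes without overlap was not counted. Passing alone says little here, because 60.6% of all genes passed with shCdk8-1 and 58.2% with shCdk8-2, 30.6% and 29.5% as lower. By size, 6 of 9 were called at more than 2-fold as well with shCdk8-1 (5 lower), against 12.3% of all genes (7.32% lower), and 4 of 9 with shCdk8-2 (3 lower), against 10.8% (6.08% lower). When the test was made against a 2-fold change itself (glmTreat), 3 of 9 were called in either line, a stricter rule to which these shares do not apply. The median log2 fold change of the 9 was -1.05 and -0.70, against 0.00 over all genes tested in either comparison. Both comparisons use the same cntrl libraries. Icam2 was tested only because of its counts in cntrl libraries, so its direction was fixed in part by the filter for low counts. In either line it is among the 9 that passed and those called lower past 2-fold, and it enters the medians. Because the genes were chosen with earlier results of these data known, the shares over all genes describe the set and do not test it.

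In SnxB the same 9 genes passed in either line with the same directions. There, 60.6% of all genes passed with shCdk8-1 (30.1% lower) and 56.7% with shCdk8-2 (28.6% lower). Those past 2-fold were 6 of 9 with shCdk8-1 (5 lower), against 12.8% of all genes (7.06% lower), and 4 of 9 with shCdk8-2 (3 lower), against 10.8% (5.75% lower). The median of the 9 was -1.06 and -0.79, against 0.01 over all genes. Icam2, whose direction was fixed in part by the filter here too, is again among those called lower past 2-fold in either line. The SnxB comparisons rest on other libraries than those in DMSO, but on the same 3 lines.

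**Figure D2:**
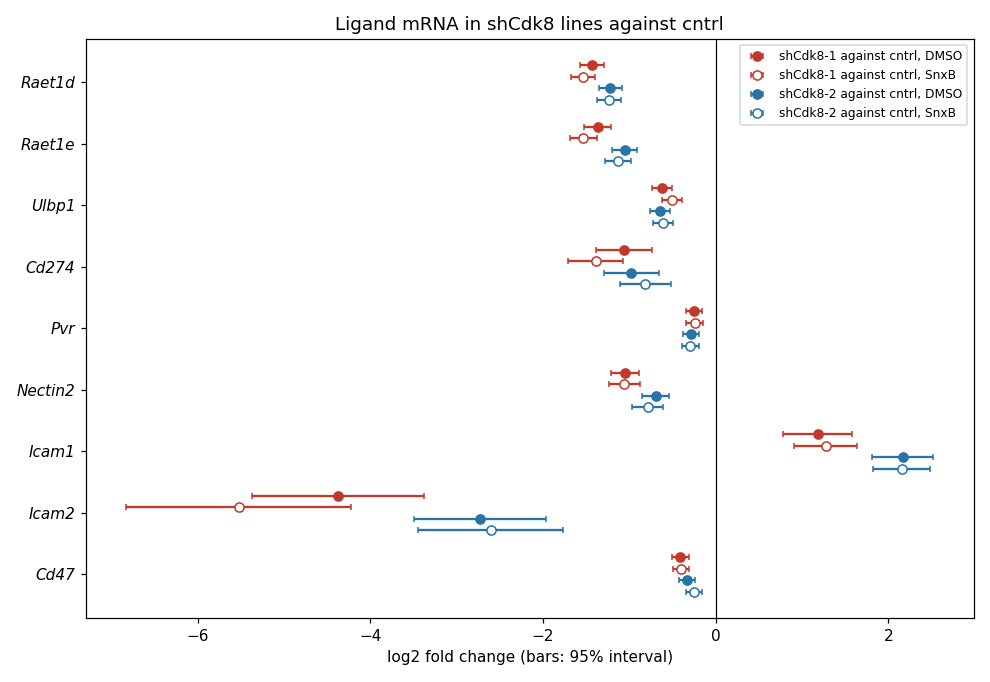
Log2 fold change of each tested ligand gene in shCdk8-1 (red) and shCdk8-2 (blue) against cntrl cells, in DMSO (filled) and SnxB (open), with 95% intervals from the edgeR fit. Icam1 lies to the right of 0 and the other 8 genes to the left in all 4 comparisons.

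Among the NKG2D ligands, both Raet1 genes fell to well under the cntrl level in either line. Raet1d, which encodes RAE-1 delta, was at 45.2, 44.5 and 50.0 CPM in the cntrl libraries in DMSO, at 17.8, 17.0 and 17.0 in shCdk8-1 and at 20.1, 19.0 and 21.1 in shCdk8-2. Raet1e, which encodes RAE-1 epsilon, was at 53.2, 50.2 and 54.1 CPM in cntrl, at 21.6, 17.6 and 21.8 in shCdk8-1 and at 26.0, 25.003 and 25.1 in shCdk8-2. Every cntrl library was above every shCdk8 library for either gene. In SnxB, Raet1d fell by 65.5% in shCdk8-1 and fell by 57.5% in shCdk8-2, and Raet1e fell by 65.4% and fell by 54.4%. Since the 2 genes share sequence, their summed level was also taken: it was 99.1 ± 4.78 CPM in cntrl cells in DMSO, 37.6 ± 2.60 in shCdk8-1 and 45.5 ± 1.23 in shCdk8-2 (n = 3 each). Raet1d supplied 43.2 to 49.1% of the sum in each of the 18 libraries.

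Ulbp1, which encodes the NKG2D ligand MULT1, fell less. Its levels in DMSO were 112, 94.8 and 106 CPM in cntrl, 66.8, 68.2 and 69.1 in shCdk8-1 and 66.9, 67.8 and 65.9 in shCdk8-2. The shCdk8 libraries lay close together and below all cntrl libraries. The log2 fold change was -0.62 (95% interval -0.73 to -0.50) with shCdk8-1 and -0.65 (-0.76 to -0.53) with shCdk8-2 in DMSO, and -0.51 and -0.61 in SnxB. Of the other NKG2D ligands on the list, H60b had 10 counts and H60c 3 counts over all 18 libraries. Raet1a, Raet1b, Raet1c and H60a matched no gene symbol of the count files, so they could not be analysed here.

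Of the PD-1 ligands, Cd274 had 81, 114 and 117 counts in the cntrl libraries in DMSO, 70, 44 and 44 in shCdk8-1 and 62, 68 and 45 in shCdk8-2. In CPM these are 4.99, 6.18 and 5.73 against 3.29, 2.51 and 2.27 and against 2.70, 3.47 and 2.46. No shCdk8 library reached the lowest cntrl library. The call at 2-fold separated values that lie well within each other's intervals, since the log2 fold change was -1.06 with shCdk8-1 (95% interval -1.39 to -0.73) and -0.98 with shCdk8-2 (-1.30 to -0.66), and with single libraries left out it ranged from -1.24 to -0.95 and from -1.13 to -0.88. In SnxB the levels were 5.24, 4.87 and 5.43 CPM in cntrl, 1.93, 1.90 and 2.06 in shCdk8-1 and 2.71, 3.19 and 2.95 in shCdk8-2, and Cd274 fell by 61.9% and fell by 43.1%.

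Of 8 genes listed as controllers of PD-L1, 6 fell with shCdk8-1 and 4 with shCdk8-2 in DMSO, 0 rose and 0 passed 2-fold (median log2 fold change -0.22 and -0.13, against 0.00 over all genes), where 30.6% and 29.5% of all genes passed as lower. Cmtm6, which keeps PD-L1 at the cell surface, changed by -0.33 and -0.34 on the log2 scale (adjusted p = 4.57e-06 and 3.98e-06), and Ifngr1, a chain of the interferon gamma receptor, by -0.28 and -0.42 (0.00206 and 6.84e-05). Irf1, a transcription factor induced by interferon gamma, had a log2 fold change of -0.21 (adjusted p = 0.0367) and 0.04 (0.727).

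Of the DNAM-1 ligands, Nectin2 had the larger fold change and Pvr the smaller. Nectin2 was at 22.5, 25.5 and 24.5 CPM in the cntrl libraries in DMSO, at 11.3, 12.3 and 11.6 in shCdk8-1 and at 14.7, 14.8 and 15.5 in shCdk8-2. Its 3 lines formed 3 separate ranges, with shCdk8-1 lowest. Against cntrl, Nectin2 fell by 51.7% in shCdk8-1 and fell by 38.3% in shCdk8-2, and in SnxB it fell by 52.0% and fell by 42.1%. Pvr was at 139, 130.0 and 134 CPM in cntrl, at 115, 109 and 114 in shCdk8-1 and at 108, 109.8 and 115 in shCdk8-2. The shCdk8 libraries of Pvr lay below all cntrl libraries and overlapped each other. Pvr fell by 16.1% and fell by 17.7% in DMSO, and it fell by 15.4% and fell by 18.4% in SnxB. The related Nectin1 also fell in either line, from 62.5 CPM in cntrl to 34.3 and 43.2 (adjusted p = 2.8e-09 and 7.47e-07), while Nectin3, a partner of these proteins in cell contacts, rose by 0.18 and 0.32 on the log2 scale (0.000877 and 2.82e-06).

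The LFA-1 ligands moved in opposite directions. Icam1 had 26, 25 and 29 counts in the cntrl libraries in DMSO, 59, 67 and 66 in shCdk8-1 and 160, 126 and 114 in shCdk8-2. In CPM this is 1.46 ± 0.127, 3.33 ± 0.527 and 6.54 ± 0.372 (n = 3 each), with 3 ranges that did not overlap. In SnxB, Icam1 was at 1.09, 1.85 and 1.43 CPM in cntrl, 3.33, 3.39 and 4.02 in shCdk8-1 and 5.91, 7.05 and 6.91 in shCdk8-2. The fitted fold against cntrl was thus 2.27 and 4.48 in DMSO and 2.42 and 4.45 in SnxB, from a low cntrl level.

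Icam2 had 17, 33 and 36 counts in the cntrl libraries in DMSO, 2, 1 and 1 in shCdk8-1 and 4, 4 and 6 in shCdk8-2. Summed over the group and scaled by depth, the level was 22.7-fold lower in shCdk8-1 (4 against 86 counts, 95% exact counting interval 8.55 to 85.2) and 6.78-fold lower in shCdk8-2 (14 counts, 3.83 to 12.9). In SnxB the cntrl libraries had 24, 29 and 15 counts, those of shCdk8-1 had 0, 0 and 1, and those of shCdk8-2 had 4, 2 and 4. The ratio there was 62.2-fold (10.8 to 2494) with shCdk8-1 and 6.28-fold (3.21 to 13.7) with shCdk8-2. Every shCdk8 library lay below every cntrl library of its medium, but shCdk8-1 was at the floor of detection. Per length, Icam2 stood above Icam1 in cntrl cells in DMSO (3.12 against 1.30 TPM) and below it in shCdk8-1 (0.140 against 3.02 TPM) and shCdk8-2 (0.476 against 5.80 TPM).

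Cd47 fell modestly. Its levels in DMSO were 128, 124 and 127 CPM in cntrl, 92.5, 92.0 and 100.4 in shCdk8-1 and 105, 101 and 95.3 in shCdk8-2, where the shCdk8 lines overlapped each other and not cntrl. Against cntrl, Cd47 fell by 24.7% in shCdk8-1 and fell by 20.7% in shCdk8-2 in DMSO, and it fell by 24.1% and fell by 16.1% in SnxB. Of the other genes of its pathway, Qpctl, the enzyme that modifies CD47 for binding by SIRPa, changed by -0.26 and -0.29 on the log2 scale (adjusted p = 0.000207 and 8.38e-05) and Calr, whose surface form promotes engulfment, by -0.20 and -0.23 (0.000162 and 4.39e-05). Thbs1, a secreted ligand of CD47, was at 0.0524 CPM in cntrl, 5.97 in shCdk8-1 and 0.738 in shCdk8-2.

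**Figure D3:**
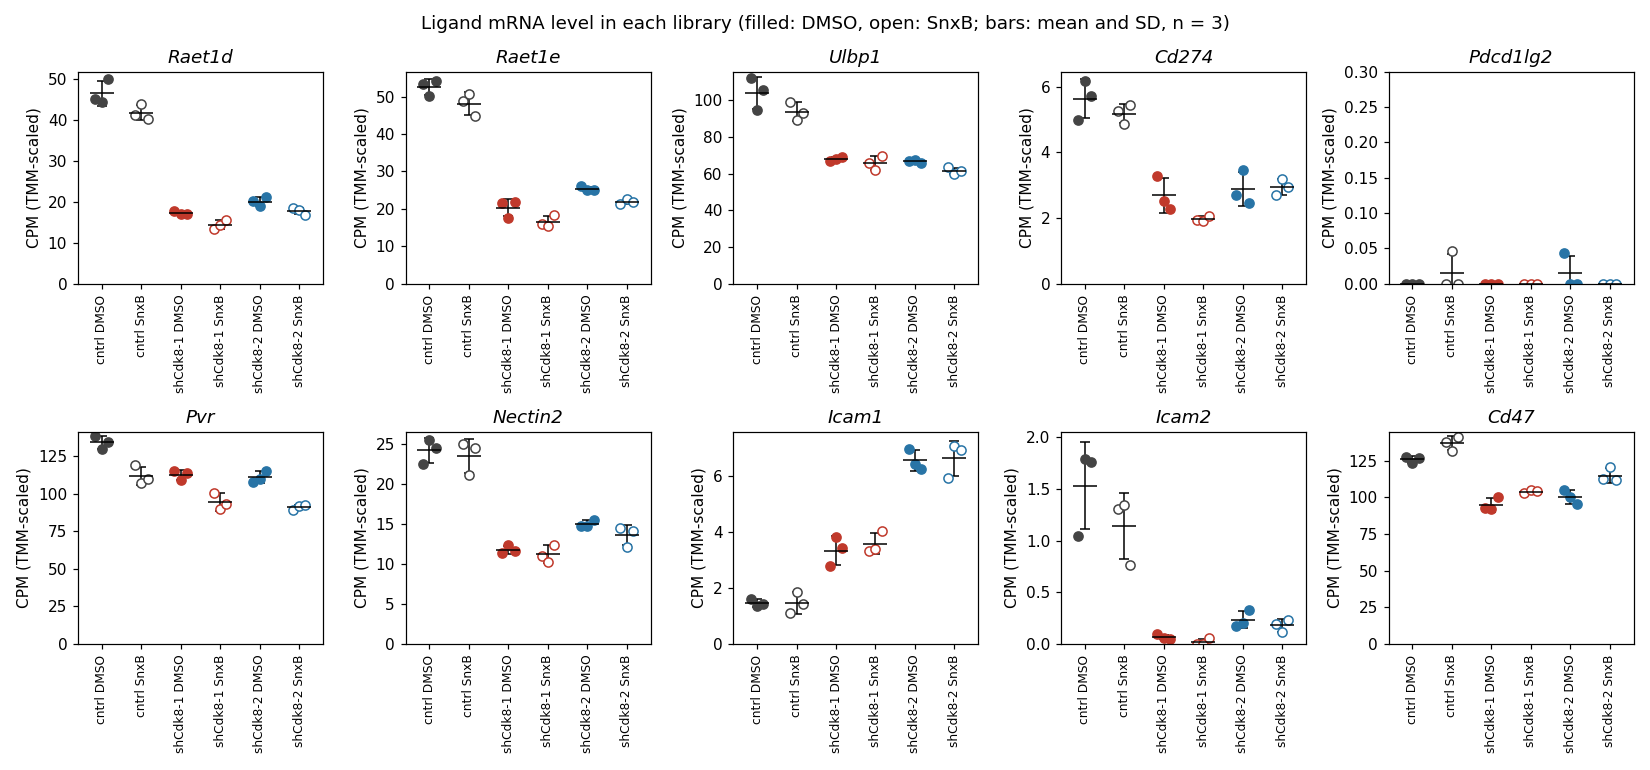
Level of each of the 10 ligand genes in each of the 18 libraries (CPM, linear axes from 0), by line and medium; points are libraries, filled in DMSO and open in SnxB, and bars give the mean and SD of 3. Icam1 is lowest in cntrl cells, Icam2 is near 0 in the shCdk8 lines, and Pdcd1lg2 is at or near 0 in all 6 groups.

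The shCdk8 lines were then compared with each other, with 22% of all genes passing in DMSO (11.3% higher in shCdk8-2). Of the 9 ligand genes, 4 passed and were higher in shCdk8-2 than in shCdk8-1: Icam1 (log2 fold change 0.98, 95% interval 0.69 to 1.28), Nectin2 (0.35, 0.18 to 0.53), Raet1e (0.31, 0.15 to 0.47) and Raet1d (0.21, 0.07 to 0.36). The call for Raet1d (adjusted p = 0.0321) was lost when shCdk8-1 replicate 2 or 3 or shCdk8-2 replicate 1 or 3 was left out (adjusted p 0.0792 to 0.119) and under DESeq2 (0.0615). Ulbp1, Pvr, Cd47 and Cd274 gave intervals of -0.15 to 0.09, -0.12 to 0.07, -0.02 to 0.17 and -0.28 to 0.45, and Icam2 gave 0.14 to 3.17. In SnxB, 20.9% of all genes passed (10.6% higher in shCdk8-2) and 7 of the 9 ligand genes were higher in shCdk8-2. Among these 7, Icam2 had only 4, 2 and 4 counts in shCdk8-2 against 0, 0 and 1 in shCdk8-1. It was tested only because of its counts in cntrl libraries. Of the 7, Icam1 (0.88), Raet1e (0.40) and Raet1d (0.30) passed with every library left out in turn. Cd274 (0.58), Icam2 (2.92), Nectin2 (0.27, with overlapping libraries) and Cd47 (0.14) had adjusted p of 0.0211 to 0.0432 and lost the call in some of those fits, in which 3 to 6 of the 9 passed: without shCdk8-1 replicate 1 the count was 3, and without shCdk8-1 replicate 2 or shCdk8-2 replicate 3 it was 4. Nectin2 also lost the call under DESeq2 (adjusted p = 0.0565) and with the compared groups alone (0.102), and Icam2 under DESeq2 (0.0687) and without the filter (0.0517). Cdk8 itself was higher in shCdk8-2 than in shCdk8-1 (log2 fold change 0.85 in DMSO and 0.77 in SnxB). The 2 lines differ by hairpin and by Cdk8 level at once, and these cannot be told apart.

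**Figure D4:**
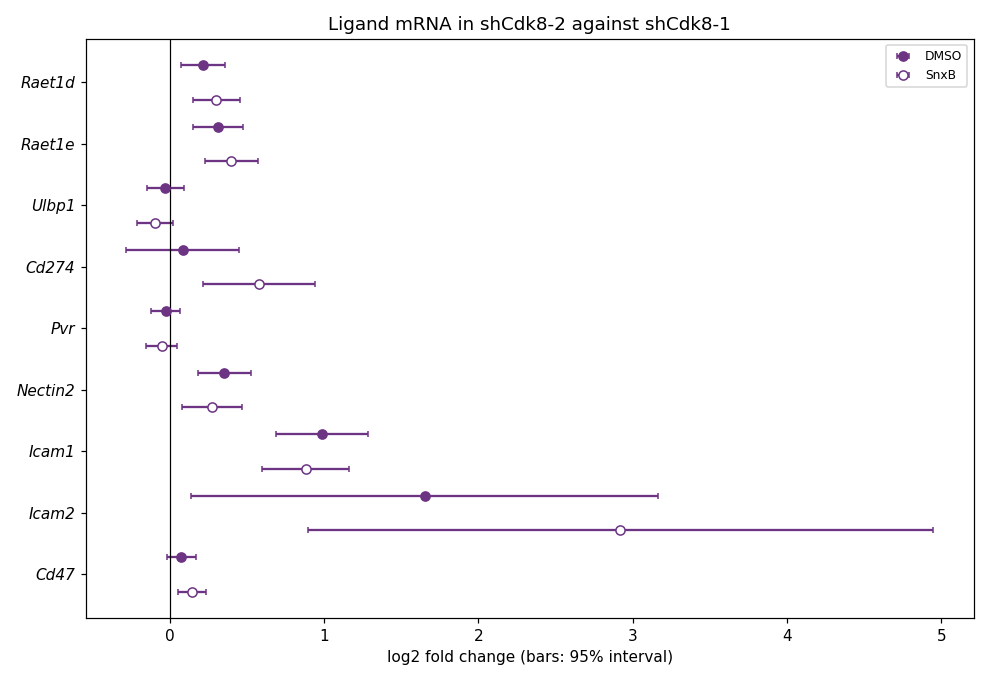
Log2 fold change of each tested ligand gene in shCdk8-2 against shCdk8-1 cells in DMSO (filled) and SnxB (open), with 95% intervals. Icam1 is at 0.98 and 0.88, and the intervals of Ulbp1 and Pvr include 0 in either medium.

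The next comparison asked whether inhibition of CDK8 and CDK19 moves the ligands. In cntrl cells, Pvr alone passed, and it fell: 139, 130.0 and 134 CPM in DMSO stood against 119, 107 and 109.6 in SnxB, with no overlap (log2 fold change -0.26, 95% interval -0.36 to -0.17, adjusted p = 0.00161). Of all genes, 5.53% passed in cntrl cells (2.1% lower). In shCdk8-1 cells Pvr was again the only gene of the 9 to pass, with 101, 89.8 and 93.1 CPM in SnxB and a log2 fold change of -0.25 (adjusted p = 0.00603), where 1.48% of all genes passed (0.564% lower). Fitted to these 6 libraries alone, its adjusted p was 0.0983. In shCdk8-2 cells, where 2.05% passed (1.06% lower), Pvr was at 89.4, 92.0 and 92.4 CPM in SnxB, a log2 fold change of -0.28 (adjusted p = 0.00171). Pvr was therefore lower in SnxB than in DMSO in each of the 3 lines without overlap of the libraries, as was Raet1d, which did not pass (log2 fold change -0.15, -0.26 and -0.17).

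Cd47 was the only ligand gene higher in SnxB than in DMSO in every line without overlap of the libraries. Here, as for Pvr and Raet1d, the share of all genes whose libraries separate in this way was not counted. The Cd47 libraries in SnxB were at 138, 132 and 141 CPM in cntrl and at 103, 105 and 104 in shCdk8-1. In shCdk8-2 they were at 112, 121 and 112. The log2 fold change was 0.12 (adjusted p = 0.130), 0.13 (0.166) and 0.20 (0.0195), so only that in shCdk8-2 passed. That call was lost without shCdk8-2 DMSO replicate 2 or 3 or without shCdk8-2 SnxB replicate 2 (adjusted p 0.0611 to 0.118).

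The other ligand genes did not pass in any line. Raet1d was at 41.2, 44.0 and 40.3 CPM in cntrl cells in SnxB, below the 3 cntrl libraries in DMSO (log2 fold change -0.15, 95% interval -0.28 to -0.03, adjusted p = 0.154). Ulbp1 in cntrl cells had -0.15 (adjusted p = 0.126), which passed at 0.0236 without cntrl DMSO replicate 2, and Raet1e in shCdk8-1 cells had -0.29 (0.0797), which passed at 0.0137 without shCdk8-1 DMSO replicate 2 and at 0.0473 without shCdk8-1 SnxB replicate 3. In cntrl cells the interval ran from -0.42 to 0.16 for Cd274 and from -0.20 to 0.11 for Nectin2. For Icam1 it ran from -0.44 to 0.50 and for Icam2 from -0.99 to 0.11, and each lies within a 2-fold change. Cd274 had -0.46 in shCdk8-1 cells (-0.82 to -0.10, adjusted p = 0.231) and 0.03 in shCdk8-2 cells (-0.30 to 0.36, adjusted p = 0.975).

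**Figure D5:**
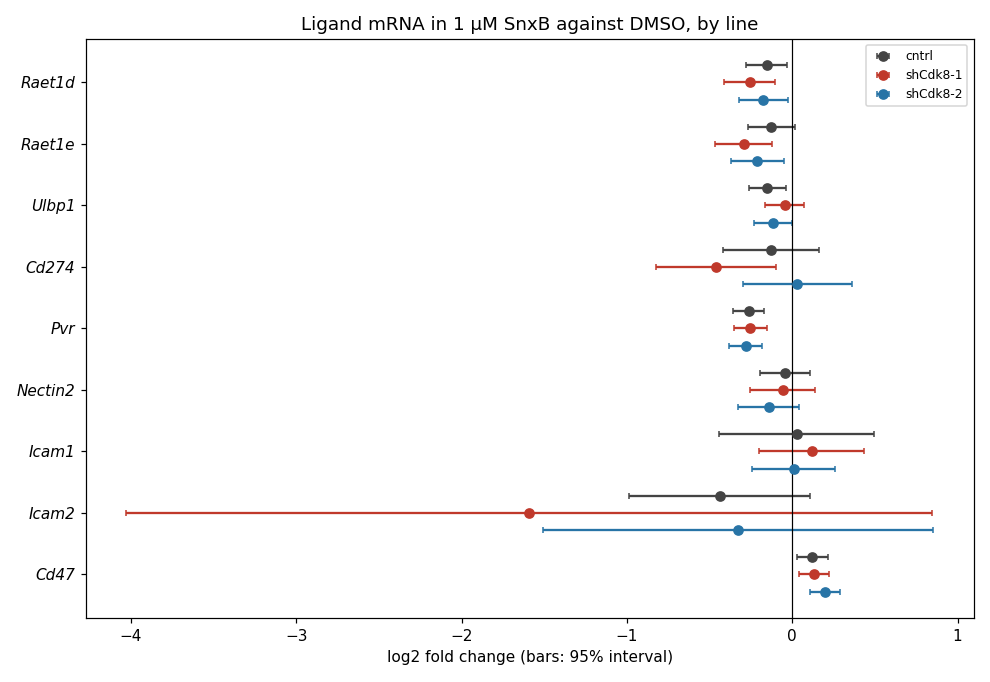
Log2 fold change of each tested ligand gene in 1 µM SnxB against DMSO in cntrl (grey), shCdk8-1 (red) and shCdk8-2 (blue) cells, with 95% intervals. Pvr lies between -0.28 and -0.25 and Cd47 between 0.12 and 0.20 in the 3 lines, and the widest intervals are those of Icam2 in the shCdk8 lines, where it had 0 to 6 counts per library.

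Whether SnxB acted differently in shCdk8 and cntrl cells was tested with the interaction of SnxB and hairpin. By edgeR, 0 of the 9 genes passed for shCdk8-1 (adjusted p 0.610 to 0.987) and 0 for shCdk8-2 (0.982 to 1.000), with 0 and 0 at an unadjusted p under 0.05 and 0 by DESeq2 in either case. Of all genes, 0.305% and 0.0548% passed. For Pvr the difference between the SnxB effects was 0.01 on the log2 scale with shCdk8-1 (95% interval -0.13 to 0.15) and -0.02 with shCdk8-2 (-0.16 to 0.12). For Cd274 the intervals were -0.78 to 0.12 and -0.26 to 0.58, and for Icam2 they were -3.54 to 1.23 and -1.33 to 1.55, which leaves sizable differences undetectable at the counts of these genes.

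Lists of ligands of the same receptor families were counted in DMSO, and these counts include the ligand genes already described. Those are Cd274 among the checkpoint ligands, Icam1 and Icam2 among the integrin ligands, Pvr and Nectin2 among the nectins, and Cd47. Of all genes, 60.6% passed with shCdk8-1 (30.6% lower) and 58.2% with shCdk8-2 (29.5% lower), with a median log2 fold change of 0.00. Of 14 genes of the B7 family and other checkpoint ligands, 8 were tested: 4 rose and 3 fell with shCdk8-1 (median log2 fold change 0.19), and 3 rose and 3 fell with shCdk8-2 (median -0.33). Icosl, the ligand of the T cell costimulator ICOS, rose from 15.2 CPM in cntrl to 28.6 and 26.3 (adjusted p = 7.59e-08 and 5.58e-07). Clec2d, which encodes a ligand of the NK cell receptor NKR-P1B, fell from 9.46 CPM to 3.47 and 3.70 (1.6e-07 and 3.21e-07), and Tnfrsf14, a ligand of BTLA, fell from 1.45 CPM to 0.699 and 0.672 (0.000913 and 0.000596). Clec2d also rose in cntrl cells in SnxB, to 14.0 CPM (adjusted p = 0.00560). Of 7 integrin ligands of the immunoglobulin superfamily, 5 were tested. With shCdk8-1, 2 rose and 2 fell (median -0.32), and with shCdk8-2, 1 rose and 2 fell (median 0.04). Vcam1, a ligand of the integrin VLA-4, fell from 2.22 CPM to 0.678 and 1.17 (4.6e-05 and 0.00378). The nectin list had 4 of 6 genes tested, of which 3 fell and 1 rose in either line (medians -0.56 and -0.41), and the CD47 list had 4 of 6 tested, of which 3 fell and 1 rose in either line (medians -0.23 and -0.26). Thbs1, which rose on the CD47 list, and Icam4, an integrin ligand that rose with shCdk8-1, had enough counts for testing only through shCdk8 libraries. Their direction was fixed in part by the filter, as was that of Icam2.

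Some genes that act with the ligands were expressed by the tumor cells themselves. Of 3 proteases that shed surface proteins (median log2 fold change -0.06 and 0.07), Adam10 changed by -0.30 and -0.24 on the log2 scale (adjusted p = 8.09e-06 and 9.19e-05), Adam17 by -0.06 and 0.15 (0.217 and 0.00253) and Mmp14 by 0.09 and 0.07 (0.0525 and 0.123). Of the 11 receptors of these ligands on effector cells, 3 had enough counts to be tested, and in either line 2 rose and 1 fell (medians 0.67 and 0.88). Over all genes, 60.6% passed with shCdk8-1 (30.6% lower) and 58.2% with shCdk8-2 (29.5% lower), with a median log2 fold change of 0.00. Itgb2, the beta chain of LFA-1, fell from 32.5 CPM in cntrl to 6.12 and 9.68 (adjusted p = 1.12e-11 and 2.99e-10), and also in SnxB against DMSO in cntrl cells, to 23.5 CPM (0.00370). Itgal, its alpha chain, rose from 1.60 to 3.44 and 2.96 CPM (adjusted p = 2.71e-05 and 0.000341), and Tigit, the inhibitory receptor for Pvr and Nectin2, rose from 3.80 to 6.05 and 10.1 CPM (0.000503 and 1.05e-07).

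Across the 18 libraries, the levels of the 8 genes that fell correlated positively with each other (Pearson's r of log2 CPM from 0.27 for Pvr with Cd47 to 0.99 for Raet1d with Raet1e), and Icam1 ran against the other 8 (r -0.89 to -0.65). These are descriptions over libraries that share 3 lines, and any gene that differs between the lines will correlate. Among 11181 genes averaging 1 CPM or more, the most like Raet1d were Il4ra (r = 0.992), Pla1a and Prkacb, the most like Ulbp1 were Sh2b3 (0.987), Myadm and Sgpl1, and the most like Cd274 were Zfp429 (0.960), Shank2 and Mapre2. The most like Nectin2 were Prickle2 (0.986), Tbl1x and Dab2, and the most like Pvr were 6430548M08Rik (0.934), Dusp3 and Polh. Those most like Icam1 were Smc6 (0.972), Efna1 and Fkbp3, those most like Icam2 were Rab31 (0.985), Nos1 and Siae, and those most like Cd47 were Pxdc1 (0.955), Vgf and Kif20a. Raet1e was most like Raet1d (0.990), Lipn and Creb5.

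Cd274 (chr19:29367455-29388095, plus strand) and Pdcd1lg2 (chr19:29410919-29471157, plus strand) are neighbors. Of the 20 tested genes nearest to Cd274, 5 rose and 8 fell with shCdk8-1 in DMSO (median log2 fold change -0.06). With shCdk8-2, 9 rose and 4 fell (median 0.09). Of all genes, 60.6% passed with shCdk8-1 in DMSO (30.6% lower) and 58.2% with shCdk8-2 (29.5% lower). Raet1d (chr10:22360552-22374139, plus strand) lies within the locus of Raet1e (chr10:22158569-22374139, plus strand), which is counted among its 20 nearest genes. Around Raet1d, 5 rose and 6 fell with shCdk8-1 (median 0.08) and 2 rose and 10 fell with shCdk8-2 (median -0.18). Around Icam1 (chr9:21015985-21028817, plus strand), 7 rose and 6 fell with shCdk8-1 (median -0.05) and 5 rose and 5 fell with shCdk8-2 (median -0.01). Ulbp1 lies at chr10:7440362-7473638, Nectin2 at chr7:19716644-19750483, Pvr at chr7:19903578-19921160 and Icam2 at chr11:106377656-106388075, all on the minus strand, and Cd47 at chr16:49855618-49915010 on the plus strand. All are gene loci of GRCm38 in the GENCODE annotation, and the counts cover their exons.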

How the data were processed

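RNA-seq of 18 libraries of mouse E0771 cells was used. Per the file headers and the methods, the authors trimmed 50-base single-end reads with Trimmomatic, mapped them with STAR, and assigned them with featureCounts 1.5.1 (stranded, GENCODE M13, GRCm38). Reads with several genomic places or several genes were not assigned. The files deposited by the authors hold raw counts for each gene and library. Symbols came from GENCODE M21 and matched 50376 of 50686 genes.

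The counts were fitted in edgeR 4.0.16 (R 4.3.3). Low genes were removed by filterByExpr (count 10, total 15), followed by TMM scaling, glmQLFit and glmQLFTest, and Benjamini-Hochberg adjustment covered every gene tested. The shCdk8 comparisons in DMSO and the SnxB comparison in cntrl used a fit of 12 libraries (12590 genes), and all others a fit of 18 (12772 genes). A gene passed below an adjusted p of 0.05 and was called if its change also exceeded 2-fold, as in the study's methods. Standard errors and 95% intervals were derived from the F statistic, and intervals of count ratios are exact binomial intervals on summed counts. Groups and replicate numbers came from the sample labels. In shCdk8-2, headers numbered 2, 3 and 3 belong to libraries labelled 1, 2 and 3, and 0 pairs of libraries held identical counts.

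Alternatives were DESeq2 1.42.0, DESeq2 size factors or library totals as the scaling, omitting the filter, a stricter filter (above 1 CPM in 3 libraries), a replicate block, another set of libraries, glmTreat against 2-fold, levels without length, and leaving out single libraries. Scripts were checked on simulated counts. Named genes are the 10 ligands, Cdk8, Cdk19, members of the lists and marker lists, and for each ligand the 3 genes with the highest Pearson's r. The values of 1 gene of the lists are not reported here. The ligands and the lists were chosen with earlier results of these data known. Figures were drawn with matplotlib 3.10.9.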

Additional observations from a re-analysis of the deposited data

How the results depend on the processing

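Each ligand gene's change in the shCdk8 lines against cntrl kept its direction and its side of the adjusted p threshold under all alternatives, in 252 results with another setting and 216 without 1 library. The count past 2-fold with shCdk8-1 in DMSO was 3 in place of 6 under glmTreat, and without 1 library the counts past 2-fold in DMSO were 5 to 6 with shCdk8-1 and 4 to 5 with shCdk8-2. With SnxB against DMSO in cntrl, library totals and no filter gave 2 genes in place of 1, and fits without 1 library gave 1 to 2. In shCdk8-1, DESeq2 and no filter gave 2 and the fit of the compared groups alone gave 0, with 1 to 2 without 1 library, and in shCdk8-2 the range was 1 to 2. Between the shCdk8 lines in SnxB, 3 to 6 of 9 passed without 1 library in place of 7. The count past 2-fold there, 1, was 0 under DESeq2, no filter, the compared groups alone and glmTreat, and 0 to 1 without 1 library, and that in DMSO, 0, was also 0 to 1. The causes were not tested.

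The values that changed sign had not passed. Under library totals, the interaction with shCdk8-1 was 0.018 for Nectin2, and that with shCdk8-2 was 0.0057 for Raet1d, 0.010 for Pvr and 0.0079 for Icam1. With no filter, the interaction with shCdk8-1 was -0.017 for Pvr and -0.017 for Cd47. Without 1 library, the interaction with shCdk8-1 ranged from -0.030 to 0.055 for Pvr, -0.094 to 0.046 for Nectin2, -0.071 to 0.31 for Icam1 and -0.018 to 0.051 for Cd47. That with shCdk8-2 ranged from -0.077 to 0.031 for Raet1d, -0.016 to 0.098 for Ulbp1, -0.046 to 0.029 for Pvr, -0.18 to 0.21 for Icam1 and -0.087 to 0.41 for Icam2. SnxB against DMSO ranged from -0.090 to 0.033 for Nectin2 and -0.19 to 0.19 for Icam1 in cntrl, from -0.14 to 0.0025 for Nectin2 and -0.0095 to 0.22 for Icam1 in shCdk8-1, and from -0.054 to 0.19 for Cd274 and -0.032 to 0.090 for Icam1 in shCdk8-2. Cd274 in shCdk8-2 against shCdk8-1 in DMSO ranged from -0.066 to 0.27.

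Same-numbered libraries deviated together with correlations of -0.16 to 0.25, and in 0 of 9 comparisons did every pair exceed 0.1, so the numbers were not taken to pair the libraries. With the replicate block, all 9 ligand genes passed in each comparison of shCdk8 with cntrl, and 99 of 99 values kept direction and call. Icam2, Icam1 and Cd274 rest on few counts, and 1 line per hairpin limits all results to these lines.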
